A study of Mus musculus with 6 samples.

Results

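The 10 genes described here encode secreted Wnt antagonists (Sfrp1, Sfrp2, Sfrp4, Frzb, Dkk2, Dkk3 and Wif1), a feedback target of the pathway (Axin2) and the Wnt-induced secreted proteins Wisp1 and Wisp2. They were taken by symbol from the authors' deposited table, with the brightest probe set of each symbol; each of the 10 had 1 probe set, and they are 10 of 22349 named genes. All 10 passed the filter on dim genes, which kept 16762 genes with a mean log2 value of at least 3.32, the 25th percentile. The cells were mouse bone marrow mesenchymal stem cells grown in a commercial stem cell medium, with no transgene or added agent named in the labels. Dense cultures had been seeded with 2500000 cells and sparse cultures with 15000 cells, and RNA was collected 1, 2 and 3 days later from samples the labels call independent. Each density and day was read on 1 Affymetrix array, 6 in all and 3 per density, so that day and replicate cannot be told apart and p-values measure how steady a difference was over the days, not the spread of replicate cultures. The labels name no strain, age or number of mice, and the meaning of the prefix that the 6 titles share is not given.

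Wnt proteins are lipid-modified ligands that bind Frizzled receptors together with the co-receptors Lrp5 and Lrp6. In the canonical branch this stabilises beta-catenin, which joins TCF and LEF factors on target genes. Sfrp proteins and Frzb carry a Frizzled-like domain and bind Wnt ligands outside the cell, as does Wif1, while classical Dkk proteins bind the Lrp co-receptors. In bone marrow stroma the pathway is known for promoting the osteoblast fate and opposing the adipocyte fate.

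The 10 genes lie on 8 chromosomes of assembly GRCm38.p6, with Frzb and Wisp2 on chromosome 2 and Sfrp2 and Dkk2 on chromosome 3. Wisp1 and Wisp2 are listed there under the newer symbols Ccn4 and Ccn5. RefSeq promoter sequences matched 5 of the 10 (Sfrp2, Frzb, Dkk2, Wif1 and Axin2), and Sfrp1, Sfrp4, Dkk3, Wisp1 and Wisp2 are named without sequence. The 250 bases before the listed transcription start are shown for Sfrp2, which differed between the densities, and for Axin2 and Wif1, which did not pass the test, with each CpG dinucleotide in capitals because Sfrp promoters are known for CpG-rich sequence that can be methylated in tumours. The windows are chr3:83766071-83766320 (Sfrp2), chr11:108920099-108920348 (Axin2) and chr10:121033754-121034003 (Wif1), all on the plus strand, 5′ to 3′. For Sfrp2 and Axin2 the annotated gene span begins upstream of the window, so that it precedes a start inside the gene.
Sfrp2: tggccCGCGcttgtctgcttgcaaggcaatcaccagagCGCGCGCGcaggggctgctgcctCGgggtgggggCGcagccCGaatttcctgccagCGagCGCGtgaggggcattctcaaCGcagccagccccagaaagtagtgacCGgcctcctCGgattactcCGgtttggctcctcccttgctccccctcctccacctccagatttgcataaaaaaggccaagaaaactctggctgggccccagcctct
Axin2: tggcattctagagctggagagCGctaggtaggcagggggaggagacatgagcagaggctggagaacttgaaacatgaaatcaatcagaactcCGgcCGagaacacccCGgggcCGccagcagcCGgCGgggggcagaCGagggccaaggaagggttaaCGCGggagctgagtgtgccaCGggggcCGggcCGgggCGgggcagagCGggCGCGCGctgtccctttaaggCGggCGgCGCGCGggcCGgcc
Wif1: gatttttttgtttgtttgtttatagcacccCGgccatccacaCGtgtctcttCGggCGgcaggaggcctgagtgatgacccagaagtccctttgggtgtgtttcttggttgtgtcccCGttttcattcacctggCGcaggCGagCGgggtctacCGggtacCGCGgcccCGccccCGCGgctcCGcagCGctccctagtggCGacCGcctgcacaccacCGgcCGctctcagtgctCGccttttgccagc
These windows held 16 CpG in Sfrp2, 24 in Axin2 and 21 in Wif1, against a median of 6 over 32851 mouse promoter windows of the same length (quartiles 2 and 16). Frzb had 16 CpG and Dkk2 had 7. A core TCF and LEF motif, searched as CTTTGAT or CTTTGAA on both strands, was absent from these letters in all 5 windows and present in 7.48% of all windows. Sfrp2, which passed the test of the densities, and Frzb, which did not, held the same number of CpG. Methylation was not measured, and whether CpG content plays a part in the values was not tested.

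Sfrp1, Sfrp2, Wisp2 and Dkk3 were higher in dense cultures. Their differences were 3.65, 3.10, 2.58 and 1.91 on the log2 scale. They were the 4 of 10 that passed the limma test of dense against sparse with the day as a block (adjusted p under 0.05), against 8.26% of all tested genes called higher. In the other direction 0 of 10 passed, against 2.9% of all genes called lower. All dense arrays lay above all sparse arrays for these 4 of the 10 (20.9% of all tested genes) and below them for 1, Axin2 (19.0%). On each of the 3 days the dense array stood higher for 6 of 10 (26.7%; these 4, Sfrp4 and Frzb) and lower for 1 (31.5%). The median difference over the 10 was 0.58, against −0.046 over all tested genes, and 5 of 10 had an unadjusted p under 0.05, against 34.3% of all tested genes. The 10 were chosen with earlier results of these data known, so that these shares are no test of the set. In these cultures fewer cells that express a gene and less RNA of it per cell cannot be told apart. All 4 also passed without the day 1 arrays and without the day 3 arrays. Without both day 2 arrays limma called 0 genes of all tested and 0 of the 10 (smallest adjusted p = 0.0803, with 2531 genes at an unadjusted p under 0.05). The authors' deposited p-values, after Benjamini-Hochberg adjustment, were under 0.05 for 0 of the 10. That adjustment ran over all 35556 probe sets and not over the 16762 genes of the limma fit, so the 2 results are not like for like.

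**Figure D1:**
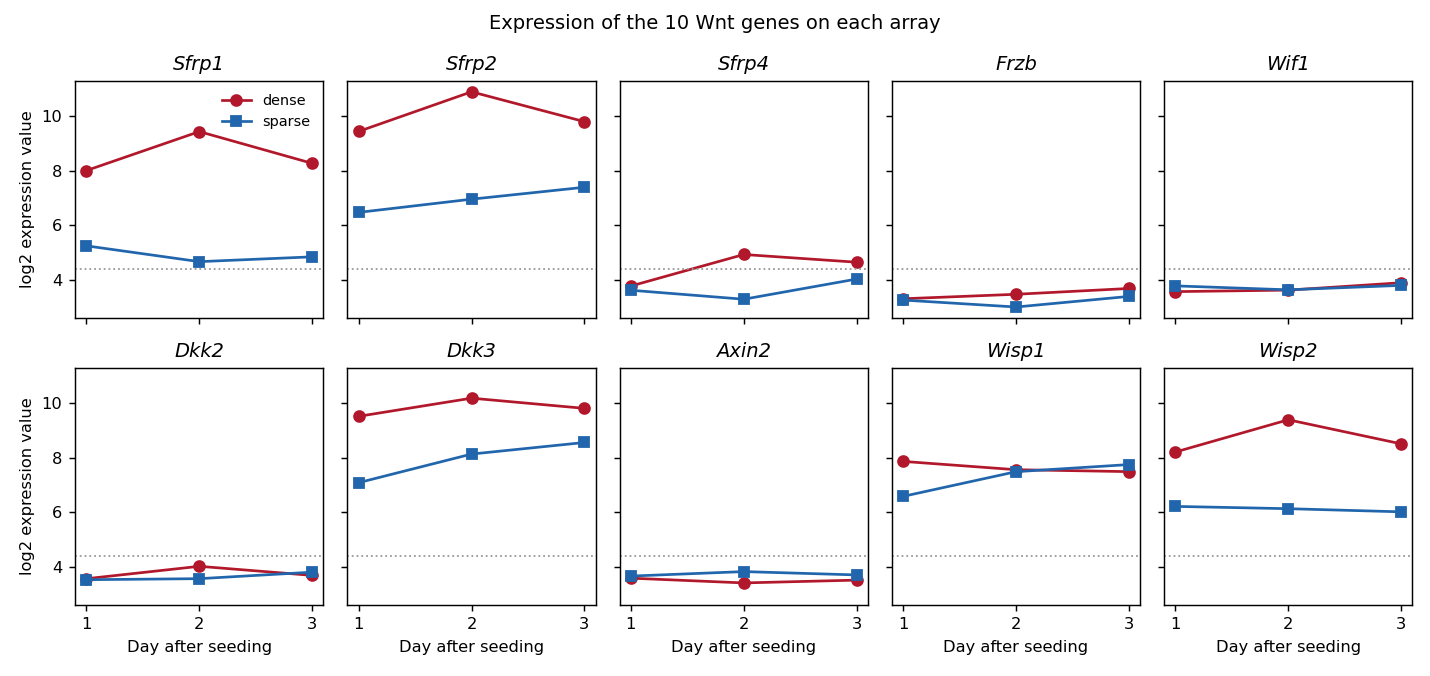
Log2 expression value of each of the 10 genes (vertical axes) on days 1 to 3 after seeding (horizontal axes), 1 array per point, dense as red circles and sparse as blue squares; the dotted line is the middle of the array medians. Dense points of Sfrp1, Sfrp2, Dkk3 and Wisp2 lie above every sparse point, and Frzb, Wif1, Dkk2 and Axin2 lie under the dotted line throughout.

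Sfrp1, which binds Wnt ligands and keeps them from their receptors, had log2 values of 8.0, 9.43 and 8.26 in dense cultures on days 1, 2 and 3, against 5.24, 4.66 and 4.84 in sparse cultures. The groups did not overlap, and the sparse values lay close to the array medians of 4.33 to 4.45, between percentiles 48.3 and 54.7 of all named genes. Sfrp1 was 12.6-fold higher in dense (95% interval 6.68 to 23.6, limma adjusted p = 0.00909). Its difference was the 8th highest of 16762 when ranked with the sign, dense minus sparse. RMA values compress the folds of dim genes, so that the size is uncertain.

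Sfrp2, a close relative with the same ligand-binding domain, had log2 values of 9.43, 10.9 and 9.79 in dense cultures on days 1 to 3, against 6.47, 6.95 and 7.39 in sparse cultures. The lowest dense value was more than 2 log2 units above the highest sparse value, and the sparse values went up each day. It was 8.59-fold higher in dense (95% interval 5.24 to 14.1; limma adjusted p = 0.00763). In dense cultures on day 2 it stood at percentile 98.8 of named genes.

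Sfrp4, another secreted Frizzled-related protein, had log2 values of 3.77, 4.92 and 4.64 in dense cultures on days 1 to 3, against 3.61, 3.28 and 4.02 in sparse cultures. The groups overlapped, because dense day 1 lay below sparse day 3. Its difference of 0.80 ± 0.28 (SE, 3 arrays per density) had an unadjusted p of 0.0315 and did not pass after adjustment (limma adjusted p = 0.113; 95% interval 0.10 to 1.51). The difference was 0.39 without the day 2 arrays and 1.13 without the day 1 arrays.

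Frzb, the secreted Frizzled-related protein first known from cartilage, had log2 values of 3.30, 3.46 and 3.68 in dense cultures on days 1 to 3, against 3.25, 3.00 and 3.39 in sparse cultures. The groups overlapped at a level near the filter floor. Its difference of 0.27 ± 0.13 did not pass (limma adjusted p = 0.209; 95% interval −0.061 to 0.60), and was 0.17 without the day 2 arrays.

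Wif1, which binds Wnt ligands through a domain unrelated to Frizzled, had log2 values of 3.56, 3.62 and 3.89 in dense cultures on days 1 to 3, against 3.77, 3.63 and 3.79 in sparse cultures. The arrays of both densities lay within the same narrow range. The difference was −0.042 ± 0.12 (limma adjusted p = 0.827; 95% interval −0.35 to 0.27), and its sign turned with renewed quantile normalization (0.021) and without the day 1 arrays (0.043).

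Dkk3, an atypical Dickkopf protein whose place in Wnt signalling is less clear than that of its relatives, had log2 values of 9.51, 10.2 and 9.80 in dense cultures on days 1 to 3, against 7.08, 8.13 and 8.55 in sparse cultures. It was 3.76-fold higher in dense (95% interval 2.51 to 5.62; limma adjusted p = 0.0135), with no overlap of the groups. The daily difference was 2.43, 2.05 and 1.25, smaller on each later day, and the sparse values went up each day.

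Dkk2, a ligand of the Lrp co-receptors, had log2 values of 3.56, 4.02 and 3.68 in dense cultures on days 1 to 3, against 3.52, 3.56 and 3.80 in sparse cultures. The groups overlapped, and the dense array of day 2 stood highest. The difference of 0.12 ± 0.15 did not pass (limma adjusted p = 0.574; 95% interval −0.25 to 0.50), and it was −0.040 without the day 2 arrays.

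Axin2, a scaffold of the beta-catenin destruction complex that canonical signalling induces, had log2 values of 3.58, 3.41 and 3.51 in dense cultures on days 1 to 3, against 3.66, 3.82 and 3.70 in sparse cultures. All dense values lay below all sparse values, the 1 of the 10 with that order (19.0% of all tested genes). The difference of −0.23 ± 0.13 did not pass (limma adjusted p = 0.252, 95% interval −0.54 to 0.086). The authors' deposited table gives an unadjusted p of 0.0318 for it, which became 0.210 after Benjamini-Hochberg adjustment. Without the day 2 arrays the difference was −0.13. The 3202 tested genes with a mean level under 4 had a median difference of −0.16 (quartiles −0.26 and −0.041), and the tested markers of macrophages, lymphocytes and endothelium had medians of −0.14, −0.18 and −0.13. Whether the level plays a part in the Axin2 value was not tested.

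Wisp2, a secreted matricellular protein of the CCN family that lacks the C-terminal domain of its relatives, had log2 values of 8.20, 9.38 and 8.50 in dense cultures on days 1 to 3, against 6.21, 6.13 and 6.01 in sparse cultures. The sparse values stayed within 0.20 of each other, and every dense value was at least 1.99 above the sparse value of the same day. Wisp2 was 5.98-fold higher in dense (95% interval 3.92 to 9.12; limma adjusted p = 0.00822).

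Wisp1, a CCN family protein described as a beta-catenin target, had log2 values of 7.86, 7.55 and 7.48 in dense cultures on days 1 to 3, against 6.58, 7.48 and 7.74 in sparse cultures. The densities were 1.28 apart on day 1 (2.43-fold higher in dense), 0.073 on day 2 and −0.26 on day 3, so that the groups overlapped. The dense values went down and the sparse values up on each later day, which was so for 1 of 10 and 3.78% of all tested genes. The mean difference of 0.36 ± 0.30 did not pass (limma adjusted p = 0.413; 95% interval −0.38 to 1.11) and was −0.093 without the day 1 arrays.

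**Figure D2:**
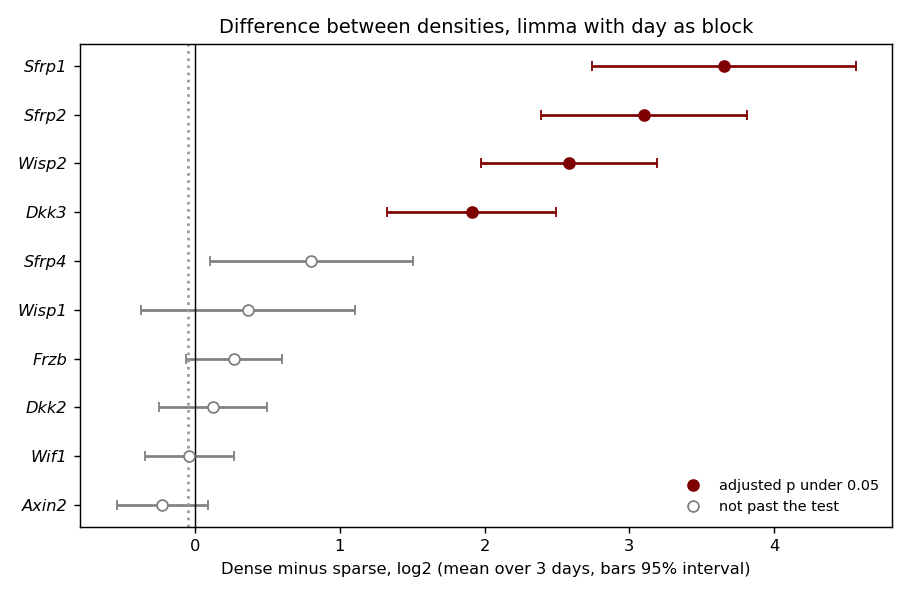
Dense minus sparse difference of each gene on the log2 scale (horizontal axis, mean over 3 days) with its 95% interval from limma; filled points passed at an adjusted p under 0.05, and the dotted line is the median of all tested genes, −0.046. Sfrp1, Sfrp2, Wisp2 and Dkk3 stand apart at 1.91 to 3.65, and the intervals of Wisp1, Frzb, Dkk2, Wif1 and Axin2 span 0.

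On day 2 the differences of Sfrp1, Sfrp2, Wisp2, Sfrp4, Frzb (0.47) and Dkk2 (0.45) were at their largest. Axin2 lay furthest below 0 on that day (−0.41). How many of all tested genes had their largest difference on day 2 was not counted. Sfrp1 was 6.77-fold, 27.2-fold and 10.8-fold higher in dense on days 1, 2 and 3. Sfrp2 was 7.82-fold, 15.3-fold and 5.29-fold higher. Wisp2 was 3.98-fold, 9.57-fold and 5.62-fold higher, more than Sfrp2 on day 3. Sfrp4 was 1.11-fold, 3.11-fold and 1.53-fold higher. With 1 array per density and day these values have no test. At least 2-fold higher in dense were 5 of 10 genes on day 1 (3.29% of all tested genes), 5 on day 2 (5.89%) and 4 on day 3 (6.4%), and 0 of 10 were 2-fold lower on any day (1.08%, 1.29% and 2.94%). Of the 10, 6 had their highest dense value on day 2 (Sfrp1, Sfrp2, Sfrp4, Dkk2, Dkk3 and Wisp2), against 25% of all tested genes. That value comes from 1 array, and its part in these peaks was not tested.

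**Figure D3:**
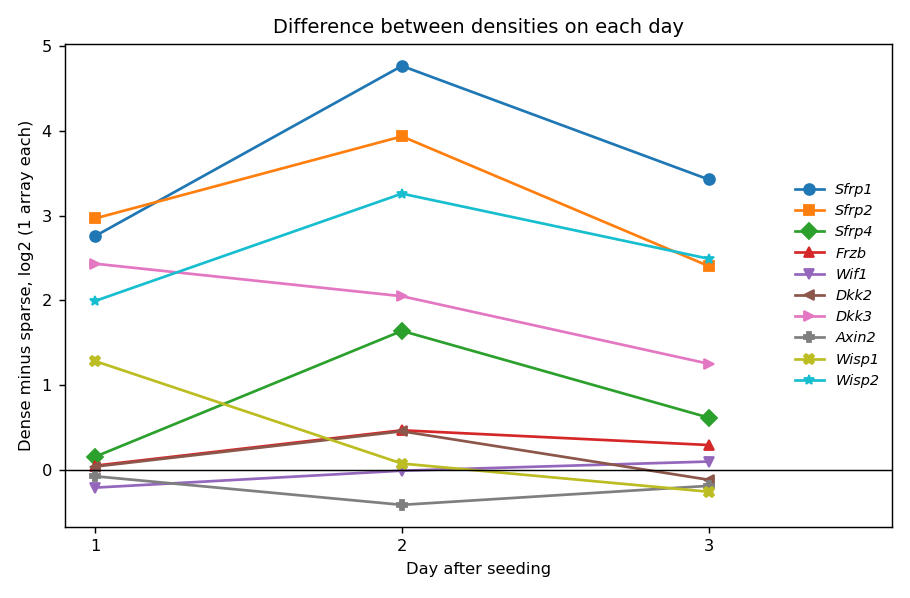
Dense minus sparse difference of each gene on the log2 scale (vertical axis) on days 1 to 3 after seeding (horizontal axis), from 1 dense and 1 sparse array per point. Sfrp1, Sfrp2, Wisp2, Sfrp4, Frzb and Dkk2 are highest on day 2, while Dkk3 and Wisp1 come down on each later day, Wisp1 to −0.26.

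Over the 3 days, straight lines were fitted within each density. The slope passed for 0 of 10 genes in dense cultures (limma, smallest adjusted p = 0.314; against 4.34% of all tested genes), and 0 of 10 had an unadjusted p under 0.05 there (19.8% of all tested genes). It passed for 0 of 10 in sparse cultures (limma, smallest adjusted p = 0.123; against 0.0776% of all tested genes), and 2 of 10 had an unadjusted p under 0.05 there (15.8% of all tested genes). The 2 were Dkk3 at 0.74 ± 0.16 per day and Wisp1 at 0.58 ± 0.11 per day in sparse, and both went up on each day there, as did Sfrp2 and Dkk2 (4 of 10, against 21.8% of all tested genes). The slopes of dense and sparse differed for 0 of 10 genes after adjustment (0.191% of all tested genes). An unadjusted p under 0.05 was found for 2 of 10, Wisp1 and Dkk3 (16.2% of all tested genes). Their differences per day, dense minus sparse, were −0.77 (limma adjusted p = 0.0922) for Wisp1 and −0.59 (limma adjusted p = 0.256) for Dkk3. A straight line takes no account of a peak on day 2.

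The profiles of these genes over the 6 arrays were set against all tested genes by the root mean square distance between profiles centred on their own mean. Nearest to Sfrp1 were haptoglobin, Hp (0.21 log2 units), the bone morphogenetic protein Bmp4 (0.38) and the chemokine Cxcl3 (0.38). Nearest to Wisp2 were Igsf10 (0.15), Plxdc2 (0.19) and hepatocyte growth factor, Hgf (0.24). Nearest to Axin2, whose profile is almost flat, were Cxxc4, C130039O16Rik and Insl5, at 0.026, 0.027 and 0.029. Among the 10, the nearest to Sfrp2 was Wisp2 (0.42) and the nearest to Sfrp1 was Sfrp2 (0.49). The closest pair was Frzb and Wif1 (0.17), both under the array medians. Sfrp1 and Axin2 were farthest apart (2.01).

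The rest of the pathway was read from lists by role, in which 104 further genes were tested, with 4 further CCN family genes counted among them. Of the 104, 13 were higher (12.5%) and 4 lower (3.85%) in dense cultures, and their median difference was −0.064. These shares stand beside 8.26% and 2.9% of all tested genes. Among other Wnt antagonists 0 of 16 tested passed in limma's fit in either direction, against 11.2% of all tested genes. Their smallest limma adjusted p was 0.0594 and their median difference −0.19. Of the 17 named on the array, 8 had a mean under the lowest array median. The antagonists Sfrp4, Frzb, Dkk2 and Wif1 of the 10 did not pass either. The largest difference among the other antagonists was that of Apcdd1, an inhibitor at the cell membrane, at −0.54 ± 0.14. Apcdd1 did pass with renewed quantile normalization (adjusted p = 0.0371), without the day as a block (adjusted p = 0.0460) and without the day 3 arrays (adjusted p = 0.0254).

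Genes for making and releasing Wnt ligands were higher in dense for 3 of 19 tested, with 0 lower and a median of −0.083. Porcn, the enzyme that attaches the lipid to Wnt ligands, had log2 values of 5.91, 7.12 and 7.71 in dense cultures on days 1 to 3, against 4.50, 5.06 and 5.11 in sparse cultures. It was 4.07-fold higher in dense (limma adjusted p = 0.0123), and its dense slope of 0.90 per day passed (limma adjusted p = 0.0143). Wls, which carries Wnt ligands to the cell surface, was 2.14-fold higher (limma adjusted p = 0.0162). Wnt5a, a ligand known mostly for beta-catenin-independent signals, was 1.64-fold higher with a limma adjusted p of 0.0479, which did not hold under 6 of the 11 alternatives tried.

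Receptors were higher for 4 of 16, with 0 lower and a median of 0.19. Fzd1 was 2.55-fold higher (limma adjusted p = 0.00975), the co-receptor Lrp6 1.98-fold (limma adjusted p = 0.0208), Fzd8 1.98-fold (limma adjusted p = 0.0134) and Fzd5 1.61-fold (limma adjusted p = 0.0432). Fzd5 was lost without the day as a block (adjusted p = 0.0555), with renewed quantile normalization, with every probe set on its own and without the day 1 arrays.

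R-spondins, secreted amplifiers of Wnt signalling, and their Lgr receptors had 2 of 7 higher and 1 lower, with a median of 0.52. Rspo2 had log2 values of 5.80, 6.70 and 6.94 in dense cultures on days 1 to 3, against 4.47, 4.92 and 5.17 in sparse cultures, a 3.08-fold difference (limma adjusted p = 0.00749). Its dense slope of 0.57 per day passed (limma adjusted p = 0.0410), though not when probe sets were tested separately (limma adjusted p = 0.0553). Rspo3 had 4.3, 5.5 and 5.8 in dense cultures, against 4.0, 3.7 and 3.7 in sparse cultures. Its density difference of 1.41 did not pass (limma adjusted p = 0.0541), while its dense slope of 0.75 per day did (limma adjusted p = 0.0258). Lgr5 had 4.39, 5.66 and 5.71 in dense cultures, against 3.85, 3.76 and 3.55 in sparse cultures, a difference of 1.53 ± 0.32 (limma adjusted p = 0.0395) whose fold is uncertain because the sparse values were near the filter floor. Lgr6 had 6.03, 4.98 and 4.56 in dense cultures, against 6.87, 6.30 and 5.92 in sparse cultures, a difference of −1.17 ± 0.15 (limma adjusted p = 0.0139). It fell over the days in dense (slope −0.74 per day, limma adjusted p = 0.0189), and without the day as a block its density difference did not pass (adjusted p = 0.0802).

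Inside the cell, 2 of 16 genes of the cytoplasmic relay were higher and 0 lower. They were Fam123b (1.97-fold, limma adjusted p = 0.0120), whose product, a negative regulator of beta-catenin, is also called Amer1, and Csnk1a1 (1.69-fold, limma adjusted p = 0.0210), the kinase that primes beta-catenin for destruction. Of 12 nuclear partners, Bcl9, which bridges beta-catenin to chromatin, was the 1 that was higher (1.88-fold, limma adjusted p = 0.0263), with 0 lower.

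Other genes described as Wnt targets in some systems had 1 of 14 higher and 3 lower, with a median of −0.13. Cyclin D1, Ccnd1, had log2 values of 10.3, 9.55 and 8.98 in dense cultures on days 1 to 3, against 11.1, 11.1 and 10.9 in sparse cultures. Its difference was −1.42 ± 0.22 (limma adjusted p = 0.0212), and its dense slope was −0.64 per day (limma adjusted p = 0.0166). The hyaluronan receptor Cd44 had a difference of −1.09 ± 0.11 (limma adjusted p = 0.0100) and the AP-1 factor Fosl1 one of −0.88 ± 0.13 (limma adjusted p = 0.0208), neither of which passed without the day as a block (adjusted p = 0.0622 and adjusted p = 0.116). The dense slope of Cd44 was −0.49 per day (limma adjusted p = 0.0368). The bone transcription factor Runx2 was 1.51-fold higher (limma adjusted p = 0.0384) by the brighter of its 2 probe sets and did not pass with their mean (difference 0.29, adjusted p = 0.130), with quantile normalization applied again (limma adjusted p = 0.0579) or without the day 1 arrays (limma adjusted p = 0.0510).

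Of 4 further CCN family genes, relatives of Wisp1 and Wisp2, 0 passed for dense against sparse in limma's fit (smallest adjusted p = 0.172). Connective tissue growth factor, Ctgf, had log2 values of 11.5, 10.2 and 8.95 in dense cultures on days 1 to 3, against 10.8, 11.6 and 11.8 in sparse cultures. It was higher in dense on day 1 and lower on days 2 and 3. Its density difference of −1.19 ± 0.63 did not pass (limma adjusted p = 0.234). It was −2.16 and passed without the day 1 arrays (limma adjusted p = 0.0270), and was −0.35 and did not pass without the day 3 arrays (limma adjusted p = 0.575). Its dense slope of −1.29 ± 0.11 per day passed (limma adjusted p = 0.00895). Its slopes differed by −1.81 ± 0.16 per day, dense minus sparse (limma adjusted p = 0.0231), the same sign as in Wisp1.

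**Figure D4:**
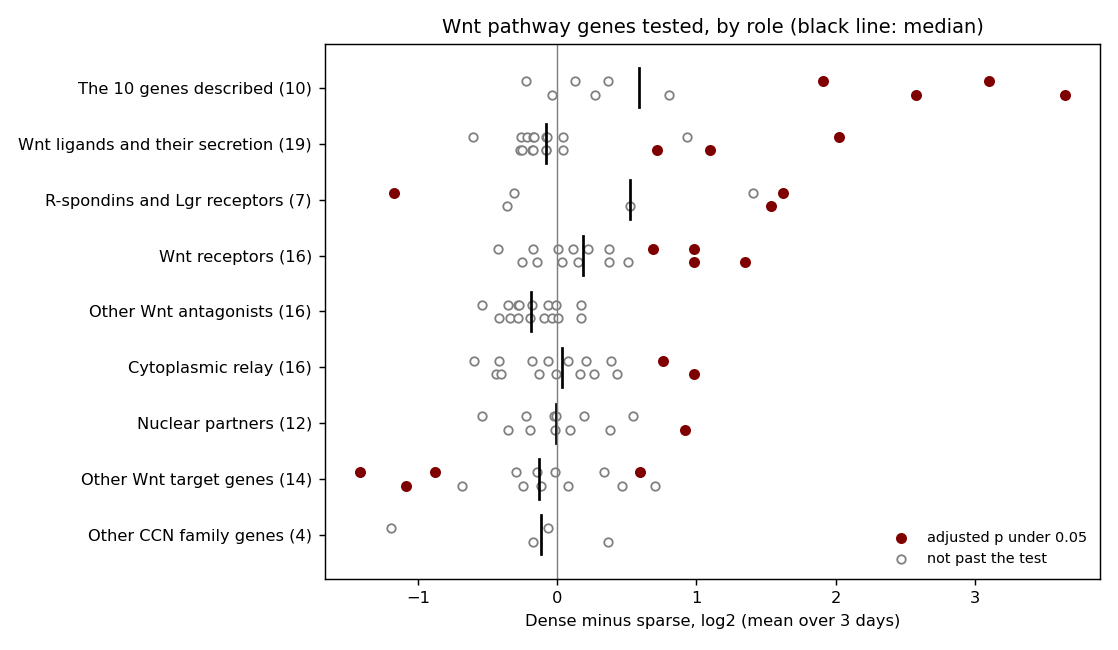
Dense minus sparse difference on the log2 scale (horizontal axis, mean over 3 days) of the 10 genes and of further tested Wnt pathway and CCN family genes by role, with the number of genes in brackets. Each point is a gene, filled where the limma adjusted p was under 0.05, and black lines are medians. The 10 genes have a median of 0.58, the other antagonists −0.19 with 0 filled points. All lists were chosen with earlier results of these data known, so that their medians are no test of a set.

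Markers of the labelled cell type were present, since 14 of 15 stromal markers had a mean above the array medians, among them Col1a2, Itgb1, Cxcl12 and Pdgfra. These markers also differed between the densities. Of the 15, 9 were higher in dense (8.26% of all tested genes) and 2 lower (2.9%), with Cd44 among the lower. Their median difference was 0.94 (summed log2 level 133 to 137 in dense, 122 to 123 in sparse). Their part in the values of the 10 genes was not tested. Macrophage and leukocyte markers had 0 of 6 tested past limma's test (smallest adjusted p = 0.187). Their summed level over 12 genes was 42.9 to 43.6 in dense and 43.4 to 44.6 in sparse. Of the 12, 6 lay above the filter floor, with a highest mean of 4.93. Ptprc and Itgam were among those under it. Of 7 lymphocyte markers named on the array, 4 lay above the filter floor and 0 passed limma's test (smallest adjusted p = 0.255). Their highest mean was 3.98, and the summed level of the 7 was 22.3 to 22.8 in dense and 23.0 to 23.5 in sparse. Of 8 endothelial markers, 5 lay above the filter floor and 0 passed limma's test (smallest adjusted p = 0.103). Their highest mean was 4.40, and the summed level of the 8 was 26.6 to 28.6 in dense and 28.0 to 29.3 in sparse. Cd79a and Cdh5 were among those under the filter floor. Of 8 erythroid and megakaryocyte markers, 6 lay above the filter floor and were tested, and Pf4 was among those under it. The mean was under the lowest array median for 5 of the 8. Of the 6 tested, Tfrc, which dividing cells also express, was lower in dense (difference −0.58, limma adjusted p = 0.0496).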

How the data were processed

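Expression had been measured on 6 Affymetrix arrays of mouse mesenchymal stem cells, dense and sparse, on 3 days. The authors deposited RMA log2 values for 35556 probe sets; RMA and Partek, without versions, are per the submitters' processing notes, and the background step, annotation release and build are not given in the sources. The authors' deposited table also holds, per the file headers, a p-value and a signed fold change of dense against sparse, which enters here as a score only for comparison. Its 6 array columns, which no label ties to a sample, stayed out. Symbols came from that table.

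The fits used limma 3.58.1 under R 4.3.3 (lmFit, eBayes, 2-sided p, Benjamini-Hochberg over 16762 genes, adjusted p under 0.05): density plus day as a factor, and a slope on the day per density (2 residual degrees of freedom each). The labelled day was taken to pair the arrays. Deviations from the mean of a density correlated at 0.127, 0.0750 and 0.0674 for same-day arrays, and at −0.150 to 0.109 for different days. These ranges overlap, so the correlations do not settle whether the day pairs the arrays. The density difference, the dense slope and the slope difference were tried on simulated data, the sparse slope was not. The simulated noise was independent between arrays and held no effect of a day or an array, so the real arrays may behave otherwise. Precision is limited by the number of arrays.

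The members and gene lists were chosen with earlier results of these data known. Further pathway genes are named where they passed for dense against sparse, at most 4 per list and direction by size. Where none passed, the gene with the largest difference is named. Slope values are given for some of these genes. Rspo3, which did not pass for dense against sparse, is named besides for its slopes. Not every gene with a passing slope is named. Of the 14 other target genes tested, 3 had a falling dense slope that passed, and of these only Ccnd1 and Cd44 are named. Nearest profiles are the 3 closest genes to Sfrp1, Wisp2 and Axin2.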

Additional observations from a re-analysis of the deposited data

Results flagged for a closer look

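Wisp1 fell on each later day in dense cultures and rose on each later day in sparse cultures, as did 3.78% of all tested genes. Its slopes differed by −0.77 per day, dense minus sparse, with limma adjusted p = 0.0922 (unadjusted p of 0.00187), so that the difference did not pass. Ctgf ran the same way, with a slope difference of −1.81 per day that passed (limma adjusted p = 0.0231). Lgr5 rose on each later day in dense cultures and fell in sparse cultures, with a slope difference of 0.81 per day that did not pass (limma adjusted p = 0.145). Rspo3 ran the same way as Lgr5, with a slope difference of 0.88 per day that did not pass (limma adjusted p = 0.0933).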

How the results depend on the processing

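For dense against sparse, 1870 genes were called. Leaving out both arrays of a day gave 0 to 2522 genes and 0 to 4 of the 10 described here, the lowest without day 2. The authors' deposited p-values gave 7247 probe sets unadjusted and 18 after adjustment, none of them one of the 10, of which 5 had an unadjusted p under 0.05. The share of higher calls was 74.0%, and 57.1% with quantile normalization applied again. Without the replicate block, 2218 genes were called and the calls of the 10 did not change, while Lgr6, Cd44, Fosl1 and Fzd5 were lost and Apcdd1 was gained. For the sparse slope, 13 genes were called; 28 with median centring, 4 without a filter, 4 with a filter at the median, 46 with every probe set and 25 with an intensity trend. For the slope difference, 32 were called; 5 without a filter, 4 with a filter at the median, 54 with every probe set and 84 with an intensity trend. The dense slope calls (728, higher share 39.3%) numbered 812 with a higher share of 28.1% under median centring. Of 300 values of the 10 under alternatives, 288 kept direction and side of the threshold. Of the rest, 4 lost the call, all without day 2, and 8 turned sign, none of them a call. The probe set, filter, trend and block settings leave the estimates of the 10 unchanged, so that under these only the p-values could move. Direction could change only with renewed quantile normalization, median centring or a day left out, so the 288 overstate how far direction was tried. Leaving out a day, Dkk2 ran from −0.0403 (day 2) to 0.246, Wif1 from −0.111 to 0.0426 (day 1) and Wisp1 from −0.0933 (day 1) to 0.677. Wif1 was 0.0211 with quantile normalization; with it and with median centring the sparse slopes were −0.0396 and −0.0442 for Wif1, −0.0212 and −0.0323 for Axin2. The causes were not tested. Slopes without a day leave no residual degrees of freedom and were not run. With 1 array per density and day, and 5 of the 10 genes under the array medians, small changes of dim genes cannot be resolved.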
